A study of Mus musculus with 2 samples.

Results

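The dendritic cell subset genes are 10 genes whose products mark or specify the subsets of dendritic cells, namely Flt3, Zbtb46, Xcr1, Clec9a, Itgax, Cd209a, Siglech, Batf3, Clec10a and Itgae. They were chosen by gene name, and all 10 were found, each in 1 row, among the 54532 genes of the deposited table. RNA sequencing compared aortic macrophages of male dyslipidemic ApoE-/- mice on the C57BL/6J background, labelled 6 weeks of age, in 2 groups named after syndromes of traditional Chinese medicine. The phlegm-dampness retention (PDR) group received a high-fat diet for 4 weeks. The spleen and kidney Yang deficiency (SKYD) group received 10 mg/kg of propylthiouracil daily, a blocker of thyroid hormone synthesis, for 4 weeks and then a high-fat diet for 2 weeks. In each group the aortic cells of 5 mice were sorted on F4/80 and CD11b and pooled, so each group had 1 library, no difference below has a replicate check, and drug, diet time, syndrome and age at sampling, which the longer SKYD schedule raises, cannot be told apart.

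Dendritic cells take up antigen in tissues and present it to T cells. Conventional dendritic cells depend on the growth factor receptor Flt3 and express the transcription factor Zbtb46 and the integrin chain Itgax (CD11c); type 1 cells (cDC1) specialise in presenting antigen to CD8 T cells, type 2 cells (cDC2) in priming CD4 T cells, and plasmacytoid dendritic cells (pDC) secrete type I interferon. In the artery wall they lie in the intima and adventitia, and several of their genes are also used by macrophages and monocytes that share the F4/80 and CD11b gate.

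Values are FPKM, fragments scaled to gene length and to a library size. Whole reads were recovered from them, 23086889 over all genes for PDR and 25427863 for SKYD. The library sizes that the FPKM imply were 23487992 for PDR and 24993633 for SKYD, not these read totals. Every ratio below rests on the implied sizes. The gate's own genes were present in both libraries. Adgre1, which encodes F4/80, had 87.3 FPKM in PDR and 93.3 in SKYD, and Itgam, which encodes CD11b, had 8.84 and 14.4. Against these, the members covered a wide range, from 0.180 FPKM for Zbtb46 to 42.4 for Cd209a in PDR, and from 0.216 to 167 for the same genes in SKYD. Summed over the 10 members, the level was 72.2 FPKM in PDR and 239.8 in SKYD, and Cd209a was the most abundant in both.

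Of the 10 members, 8 had a higher FPKM in SKYD and 2 had a higher FPKM in PDR. A difference was counted when it was more than 2-fold on log2(FPKM + 1) among genes whose mean FPKM reached 1, a scale that understates the change of low genes. The filter kept 7 members and left out Clec9a, Itgae and Zbtb46, and Siglech and Xcr1 passed it only through their SKYD level. In the same way, any listed gene that passed with under 1 FPKM in 1 library did so only through the other library. Cd209a, Clec10a and Siglech were more than 2-fold higher in SKYD, 3 of the 7, where 6.91% of the 10399 genes tested were. None of the 7 was more than 2-fold higher in PDR, where 7.38% of the genes tested were. The median difference, PDR minus SKYD, was -0.64 for the 7 members and -0.0035 for all genes tested. The members' median was -1.06 with a pseudocount of 0.1 and -1.78 with a minimum mean FPKM of 5. In bulk RNA, fewer cells of a type and less RNA per cell cannot be told apart.

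**Figure D1:**
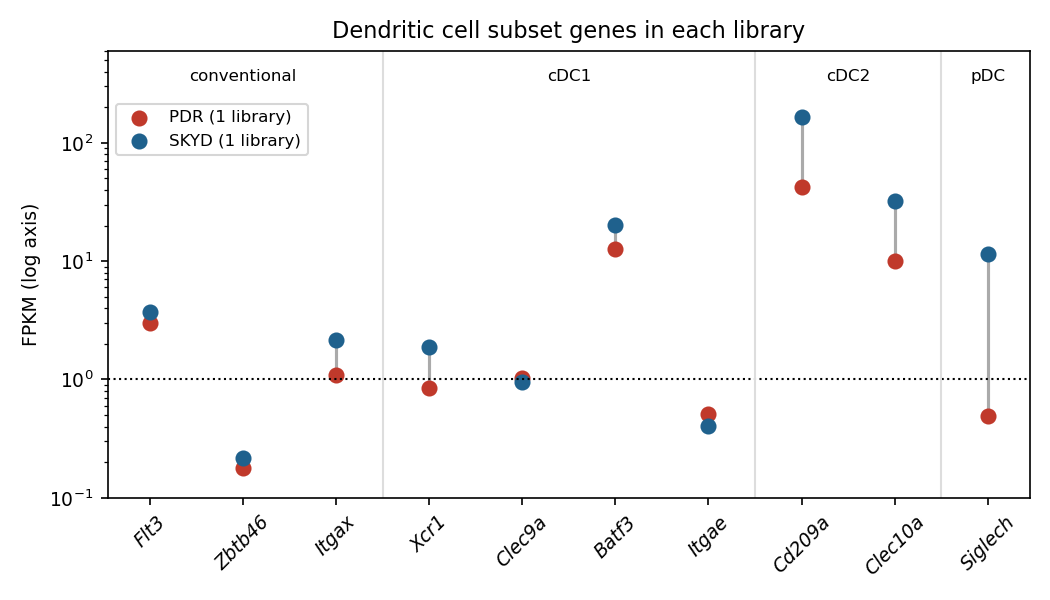
FPKM of each member in either library on a log axis, grouped by the subset each gene marks, with a dotted line at 1 FPKM. Cd209a reached 167 FPKM in SKYD, and Siglech had the widest gap, 0.491 against 11.4.

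Among the genes that conventional dendritic cells share, Flt3, the receptor for the growth factor that sustains the lineage, had 2.999 FPKM in PDR from 435 reads and 3.69 in SKYD from 570 reads. Its level was 1.23 times as high in SKYD, with a 95% interval of 1.09 to 1.40. Each interval is an exact Clopper-Pearson interval for the share of the reads that fell in either library, and covers counting error only. Zbtb46, a repressor that marks conventional dendritic cells and their precursors, had 0.180 FPKM in PDR and 0.216 in SKYD, from 36 and 46 reads. The interval of its ratio, 0.760 to 1.91, spans 1, so a difference was not detectable at this depth. Itgax, the integrin chain of CD11c, which tissue macrophages can also carry, had 1.08 FPKM in PDR and 2.16 in SKYD, a ratio of 1.995 (1.60 to 2.49). These genes were therefore low in both libraries, and the Itgax interval lay wholly above 1 while that of Zbtb46 did not.

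Promoter windows of RefSeq (GRCm38.p6), from 250 bases before to 50 after a gene's start, were searched on both strands for TGANTCA, the AP-1 motif that Batf3 binds with Jun partners, for GAAANNGAA, bound by IRF factors, and for GAGGAAGT, bound by PU.1. A window was matched for 8 of the 10 members, all except Clec10a and Itgae. TGANTCA was found in 2 of the 8 and in 7.81% of all 32851 windows, GAAANNGAA in 1 of the 8 and in 8.56% of all, and GAGGAAGT in 0 of the 8 and in 3.2% of all. No member's window held more than 1 match. The windows with a match are shown for where the letters fall, with the match in capitals; Itgax is chr7:128129300-128129599 on the plus strand, Zbtb46 is chr2:181424339-181424638 on the minus strand, inside the gene, and Clec9a is chr6:129408612-129408911 on the plus strand with its match read on the opposite strand.
Itgax: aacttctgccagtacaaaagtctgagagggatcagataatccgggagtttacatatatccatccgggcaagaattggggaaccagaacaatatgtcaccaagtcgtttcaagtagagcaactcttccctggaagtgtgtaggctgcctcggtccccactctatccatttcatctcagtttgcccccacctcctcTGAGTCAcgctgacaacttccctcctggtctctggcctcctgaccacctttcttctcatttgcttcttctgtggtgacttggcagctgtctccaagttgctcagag
Zbtb46: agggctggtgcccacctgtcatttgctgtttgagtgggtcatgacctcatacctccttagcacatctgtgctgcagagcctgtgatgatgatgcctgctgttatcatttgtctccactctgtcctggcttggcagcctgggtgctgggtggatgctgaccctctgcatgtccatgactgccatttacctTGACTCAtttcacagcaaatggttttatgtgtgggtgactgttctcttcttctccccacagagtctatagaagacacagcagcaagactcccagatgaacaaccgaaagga
Clec9a: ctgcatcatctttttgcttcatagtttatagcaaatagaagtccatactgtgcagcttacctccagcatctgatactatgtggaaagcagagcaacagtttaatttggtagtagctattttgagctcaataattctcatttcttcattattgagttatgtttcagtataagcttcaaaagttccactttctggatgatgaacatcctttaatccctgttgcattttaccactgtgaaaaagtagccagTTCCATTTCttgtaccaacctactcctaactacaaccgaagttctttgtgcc
The match ran from position -56 to -50 in Itgax and from -61 to -55 in Zbtb46, counted from the start as 0, and from -2 to 6 in Clec9a. A match is a description of these letters and not a binding site.

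The cDC1 members differed among themselves. Xcr1, the receptor for the chemokine Xcl1, had 0.841 FPKM in PDR and 1.87 in SKYD, from 88 and 208 reads, a ratio of 2.22 (1.72 to 2.88). On log2(FPKM + 1) its difference was -0.64, which is under 2-fold, but with a pseudocount of 0.1 it was -1.06, which is past it and makes 4 members counted in SKYD. Clec9a, which binds actin exposed by dead cells, had 79 reads in each library, or 1.02 FPKM in PDR and 0.960 in SKYD. Its ratio was 0.9398 (0.679 to 1.30). Both genes are used as cDC1 markers, yet Xcr1 stood at 0.824 times the FPKM of Clec9a in PDR and at 1.95 times in SKYD.

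Batf3, the transcription factor that cDC1 require, was the most abundant cDC1 member, with 12.7 FPKM in PDR and 20.02 in SKYD. It was 1.57 times as high in SKYD (1.40 to 1.76), and its difference was -0.61. Itgae, the integrin chain of CD103, which is also carried by T cells, had 0.511 FPKM in PDR and 0.402 in SKYD. Its interval, 0.519 to 1.18, spans 1. Reads of Itgae and of Haspin, a gene on the opposite strand within it at 5.44 FPKM in PDR and 2.65 in SKYD, are uncertain because use of strand in counting is not given in the sources used here. Clec9a overlaps Clec1b on the same strand, and 136 of the 3385 windows of 50 bases in its transcripts also occur in transcripts of Clec1b. For Xcr1, 72 of 4404 such windows occur in transcripts of other genes, and for Siglech, given below, 14 of 3603.

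Of 13 other listed cDC1 genes, 8 passed the filter, 2 were past 2-fold in favour of PDR and 0 of SKYD, and the median difference was 0.54. With the cDC1 members included, 10 of 17 passed and the median was -0.06, which turned to 0.11 with no filter and to 0.38 with a minimum mean FPKM of 5. Irf8, which acts with Batf3, had 33.6 FPKM in PDR and 13.4 in SKYD, and Gcsam had 7.25 and 1.81. Id2, which restrains E proteins in the lineage, had 229 FPKM in PDR and 428 in SKYD, Cd24a had 255 and 157, Naaa had 46.7 and 35.7, and Rab7b had 8.23 and 14.5. The ratio of Irf8 to Batf3 was thus 2.64 in PDR and 0.669 in SKYD, opposite sides of 1. Markers of B cells, given below, were also higher in PDR, where all 5 tested were past 2-fold. The part of B cells in these differences was not tested.

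The cDC2 member Cd209a had the highest level of the members in both libraries, and Clec10a came second in SKYD and after Batf3 in PDR. Cd209a, a C-type lectin related to human DC-SIGN that also marks monocyte-derived dendritic cells, had 42.4 FPKM in PDR from 1575 reads and 167 in SKYD from 6596 reads. Its level was 3.94 times as high in SKYD (3.72 to 4.16), a difference of -1.95. Clec10a, a lectin that binds galactose-type sugars and is also found on macrophages, had 9.96 FPKM in PDR from 678 reads and 32.4 in SKYD from 2347 reads. It was 3.25 times as high in SKYD (2.99 to 3.55), a difference of -1.61. Set against Flt3, Cd209a stood at 14.1 times its FPKM in PDR and 45.1 times in SKYD, and Clec10a at 3.32 and 8.77 times. Set against the macrophage gene Adgre1, Cd209a stood at 0.485 times in PDR and 1.79 times in SKYD, so both lectins were higher in SKYD on these scales too.

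Cd209a lies at chr8:3743397-3748984 on the minus strand, in GRCm38, in a cluster of related lectin genes. Cd209d had 75 reads in PDR and 1327 in SKYD, or 3.47 and 57.8 FPKM, a ratio of 16.6 (13.2 to 21.3). Cd209e had 0 reads in PDR and 801 in SKYD, which put it higher in SKYD by at least 251-fold against a floor of 3 reads, a limit less strict than the intervals, whose lower bound here is 204. Not every gene of the cluster differed in this way. Cd209b, whose product is expressed by marginal zone macrophages of the spleen, had 398 reads in PDR and 372 in SKYD, and its interval, 0.761 to 1.01, spans 1. Cd209f had 78 and 113 reads, a ratio of 1.36 (1.01 to 1.84), and Cd209g had 9 and 13 reads. The bounds of 1.01 for Cd209b and Cd209f rest on the library sizes that the FPKM imply, and would lie lower with the read totals. Cd209c had 0 and 24 reads, at least 7.52-fold higher in SKYD. Nearby, Fcer2a, chosen after its value was seen, went the other way, with 710 reads in PDR and 108 in SKYD. Clec4g, a neighbour chosen in the same way, had 17 reads in PDR and 81 in SKYD, a ratio of 4.48 (2.63 to 8.06).

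**Figure D2:**
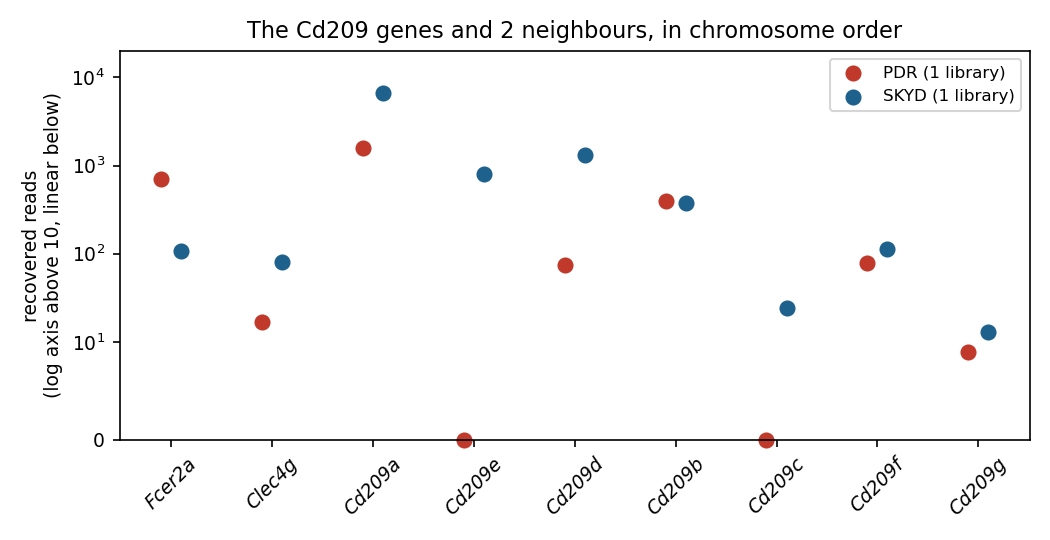
Recovered reads of the Cd209 genes and their neighbours Fcer2a and Clec4g in each library, in chromosome order, on an axis that is logarithmic above 10 and linear below. Cd209a, Cd209e and Cd209d had more reads in SKYD, while Cd209b had 398 in PDR and 372 in SKYD.

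The same 3 motifs were searched in the promoter windows of the 7 Cd209 genes. TGANTCA was found in 2 of the 7, those of Cd209f and Cd209g, and the other motifs in 0. Like that of Zbtb46, the windows of Cd209c and Cd209g lie inside their genes as placed in the deposited table. The windows of Cd209a, at chr8:3748935-3749234 on the minus strand, and of Cd209f, at chr8:4105715-4106014 on the minus strand, show a window without a match and a window with one, in capitals.
Cd209a: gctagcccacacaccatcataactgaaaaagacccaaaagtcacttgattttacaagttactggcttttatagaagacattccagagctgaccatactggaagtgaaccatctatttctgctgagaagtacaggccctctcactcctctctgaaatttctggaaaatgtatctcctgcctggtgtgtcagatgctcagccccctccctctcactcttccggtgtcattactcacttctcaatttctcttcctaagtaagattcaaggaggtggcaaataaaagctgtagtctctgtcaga
Cd209f: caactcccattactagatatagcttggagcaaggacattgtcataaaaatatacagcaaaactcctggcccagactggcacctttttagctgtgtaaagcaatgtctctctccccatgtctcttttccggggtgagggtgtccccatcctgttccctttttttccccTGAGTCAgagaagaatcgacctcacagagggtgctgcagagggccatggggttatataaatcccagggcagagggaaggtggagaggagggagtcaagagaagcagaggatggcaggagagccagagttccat
Over aligned bases, the window of Cd209a was 67.3% identical to that of Cd209b, 65.5% to that of Cd209c, 69.1% to that of Cd209d, 70.7% to that of Cd209e, 59% to that of Cd209f and 54.9% to that of Cd209g. None of the 1677 windows of 50 bases in Cd209a transcripts occurred in another gene's transcripts.

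Clec10a has a close copy, Mgl2, and their coding sequences were 90.4% identical over aligned bases. Mgl2 had 30.2 FPKM in PDR and 68.9 in SKYD, a ratio of 2.28 (2.15 to 2.42). Of the 3181 windows of 50 bases in Clec10a transcripts, 270 also occur in those of Mgl2, so some of their reads could be split either way. Both were higher in SKYD. Of 11 listed cDC2 genes, 10 passed the filter, 1 was past 2-fold in PDR and 4 in SKYD, with a median of -0.43, which was -1.39 with a minimum mean FPKM of 5. Without the members Cd209a and Clec10a, 8 genes were left, with 1 and 2 past 2-fold and a median of -0.22. Sirpa, an inhibitory receptor of cDC2 and macrophages, had 18.1 FPKM in PDR and 13.02 in SKYD, and Dtx1 had 2.67 and 0.820. Irf4, also used as a cDC2 marker, had 2.11 and 1.66 FPKM, a ratio of 0.785 (0.648 to 0.950). Of the 10 cDC2 genes tested, 3 were higher in PDR and 7 in SKYD.

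Siglech, a receptor of plasmacytoid dendritic cells that signals through the adaptor Tyrobp, had 0.491 FPKM in PDR from 39 reads and 11.4 in SKYD from 964 reads. It had the largest ratio of the 10 members, 23.2 (16.9 to 32.9), a difference of -3.06. Tyrobp itself had 2908 FPKM in PDR and 4333 in SKYD. Other plasmacytoid genes lay on both sides. Of 16 others listed, 13 passed the filter, 2 were past 2-fold in favour of PDR and 4 of SKYD, where 7.38% and 6.91% of all genes tested were, and the median was -0.10. With Siglech included, the median was -0.22, the same with genes at 0 set to the floor of 3 reads and -0.10 with no filter. The most abundant, Ly6d, had 1025 FPKM in PDR and 1045 in SKYD, and Bst2 had 189 and 203. Irf7, which drives interferon genes, had 65.6 in PDR and 31.4 in SKYD, and Lair1 had 31.7 and 12.8. Tcf4, also used as a pDC marker, had 1.46 FPKM in PDR and 0.967 in SKYD, a ratio of 0.663 (0.599 to 0.733). Spib had 6.84 and 3.08 FPKM. Pacsin1, under the filter, had 1.15 and 0.785, a ratio of 0.680 (0.537 to 0.858). Of the 13 others that passed the filter, 8 were higher in SKYD. Ccr9, a homing receptor also used by thymocytes, had 131 reads in PDR and 4774 in SKYD, a ratio of 34.2 (28.8 to 41.1). Klk1 had 0 and 1067 reads, at least 334-fold higher in SKYD. The others past 2-fold in SKYD were Cd300c, with 0 and 63 reads, at least 19.7-fold higher there, and Cox6a2, with 4.45 and 12.2 FPKM, a ratio of 2.74 (2.08 to 3.64). Of these 4 genes, Ccr9, at 0.544 FPKM in PDR, Klk1 and Cd300c passed the filter only through their SKYD level, as Siglech did.

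**Figure D3:**
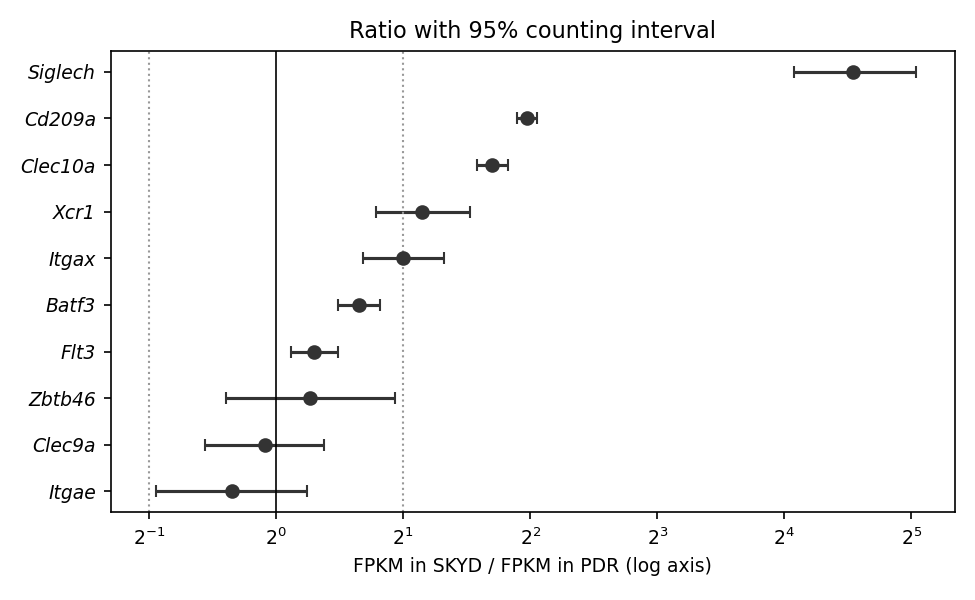
Ratio of FPKM in SKYD to FPKM in PDR for each member on a log axis, with 95% counting intervals and dotted lines at 2-fold in each direction. Siglech stood at 23.2, Cd209a at 3.94 and Clec10a at 3.25, and the intervals of Zbtb46, Clec9a and Itgae span 1.

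Most listed genes of T cells and immature thymocytes were higher in SKYD, like Siglech and Ccr9. All 11 T cell markers that passed the filter, of 12 listed, were more than 2-fold higher in SKYD, with a median of -2.41. The other, Foxp3, was under the filter and higher in PDR, with 74 reads against 11, a ratio of 0.140 (0.0668 to 0.265). The summed level was 643 FPKM in PDR and 5028 in SKYD, and Trbc2 was the most abundant, with 261 and 1995. Of 10 immature thymocyte markers, 9 were more than 2-fold higher in SKYD, with a median of -2.90, or -2.89 with genes at 0 set to the floor. That median was -4.99 with a pseudocount of 0.1 and -3.85 with a minimum mean FPKM of 5. They summed to 30.4 FPKM in PDR, where Cd1d1 led with 19.9, and to 389 in SKYD, where Dntt led with 206. Dntt had 0.780 in PDR. Cd1d1, at 10.7 in SKYD, was the 1 marker higher in PDR, and 3 others, Ptcra, Rag1 and Rag2, had 0 reads there. Of the 9 markers higher in SKYD, only Tcf7, with 7.70 FPKM in PDR and 99.1 in SKYD, reached 1 FPKM in PDR. The rest passed the filter only through their SKYD level. F4/80 and CD11b, the proteins of the gate, are not typical of such cells, and their part in the difference of Siglech was not tested.

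Markers of the gated cells and of others also differed. The 15 macrophage markers had a median of -0.67, with 0 more than 2-fold higher in PDR and 6 in SKYD, and summed to 24929 FPKM in PDR and 48241 in SKYD, led by Lyz2 with 22217 and 41336. Cd14 had 149 and 938. The 10 monocyte markers had a median of 0.39 and summed to 6486 and 3732 FPKM, led by Chil3 in PDR and Plac8 in SKYD. None of the macrophage or monocyte markers was at 0 in either library. B cell markers had a median of 2.60 over 5 genes of 7 and summed to 1681 and 383 FPKM, led by Cd79b in PDR and Cd79a in SKYD. NK cell markers had a median of 1.27 over 6 genes of 7 and summed to 423 and 173, led by Gzma. Neutrophil markers had a median of 0.93 over 10 genes and summed to 4878 and 3728, led by S100a9. Hepatocyte markers had a median of 1.60 over 7 genes of 8 and summed to 2135 and 728, led by Apoa2. Progenitor markers, of which 2 of 9 passed the filter, had a median of -0.79, which was -0.072 with no filter and -1.39 with a pseudocount of 0.1, and summed to 3.65 and 7.11 FPKM, led by Il7r. The part of these cell types in the differences of the members was not tested.

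**Figure D4:**
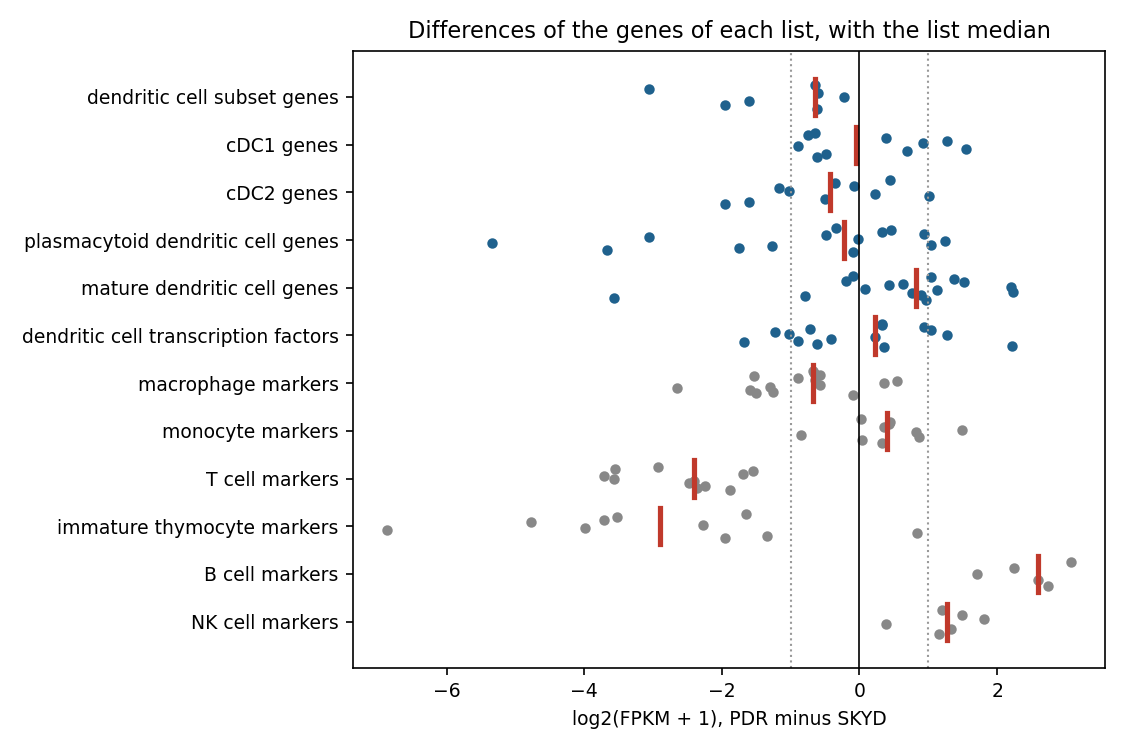
Difference in log2(FPKM + 1), PDR minus SKYD, of each gene that passed the filter in each list, with the list median as a red bar and dotted lines at 2-fold. The members had a median of -0.64, T cell markers of -2.41 and mature dendritic cell genes of 0.83.

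Most genes of mature dendritic cells, which have taken up antigen and present it, were higher in PDR, but their summed level was 319 FPKM in PDR and 362 in SKYD, with Ccl17 the most abundant by mean. Of 18 listed, 16 passed the filter, 6 were past 2-fold in favour of PDR and 1 of SKYD, with a median of 0.83. Cd83, a marker of maturation, had 107 FPKM in PDR and 22.4 in SKYD, and Cd274, which encodes the checkpoint ligand PD-L1, had 12.2 and 1.81. Ccr7, the receptor that guides cells to lymph nodes, had 56.7 and 30.1. Cd83 and Ccr7 are also expressed by B cells, whose 5 tested markers were all past 2-fold in PDR, and the part of B cells here was not tested. Of the 16, 4 were higher in SKYD, and the 1 past 2-fold was Ccl17, a chemokine for T cells, with 18.0 FPKM in PDR and 224 in SKYD, a ratio of 12.5 (10.9 to 14.4). Ccl22, which binds the same receptor, had 5.82 and 10.8.

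Among 20 dendritic cell transcription factors, 15 passed the filter, 3 were past 2-fold in favour of PDR and 3 of SKYD, and the median was 0.23, which turned to -0.61 with a minimum mean FPKM of 5. Spi1, which encodes PU.1, had 108 FPKM in PDR and 179 in SKYD. Gfi1 had 0.414 and 3.54, and Nfil3, which the cDC1 lineage needs, had 12.6 and 31.0. Klf4, also past 2-fold in SKYD, had 0.977 FPKM in PDR and 3.01 in SKYD. Gfi1 and Klf4 passed the filter only through their SKYD level. Past 2-fold in PDR were Relb, at 7.28 FPKM in PDR and 3.03 in SKYD, Irf8, given above, and Batf2. Batf2 and Batf, the relatives of Batf3, were higher in PDR, where Batf3 was not: Batf2 had 8.34 FPKM in PDR and 1.02 in SKYD, and Batf had 60.7 and 47.3. The direction differed within the family.

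Of 10 listed growth factors and receptors, 5 passed the filter and 0 were past 2-fold in either direction, with a median of -0.08. The list includes the member Flt3, and the median of the 4 tested genes without it was 0.014, a change of sign. Flt3l, the ligand of Flt3, had 1.17 FPKM in PDR and 1.01 in SKYD, Csf2ra had 39.1 and 46.8, and Csf2rb had 7.51 and 8.02. Under the filter, Csf1 had 7 reads in PDR and 22 in SKYD, a ratio of 2.95 (1.22 to 8.19), and Kitl had 13 and 35, a ratio of 2.53 (1.31 to 5.21). Csf1r, the macrophage growth factor receptor related to Flt3, had 57.7 and 44.9, so Csf1r stood at 19.2 times Flt3 in PDR and 12.2 times in SKYD.

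Of 13 partners of the members, 12 passed the filter, 3 were past 2-fold in favour of PDR and 0 of SKYD, and the median was 0.16. Itgb7, which pairs with Itgae, had 149 FPKM in PDR and 54.3 in SKYD. The FPKM of Itgb7 was 291 times that of Itgae in PDR and 135 times in SKYD. The Itgae level came from 55 and 46 reads, which are uncertain where Haspin overlaps, and pairing of the chains was not tested. Itgb2, which pairs with Itgax, had 175 and 210.01, and Junb, which can pair with Batf3, had 115 and 163. Cdh1, a ligand of Itgae, had 0 and 53 reads, at least 16.6-fold higher in SKYD. Xcl1, the ligand of Xcr1, had 7.57 and 6.43 FPKM.

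Of 25 paralogues, 24 were in the table and 16 passed the filter, 4 of them more than 2-fold higher in PDR and 5 in SKYD, with a median of 0.10, which turned to -0.24 with a minimum mean FPKM of 5. Lectin genes near Clec9a differed among themselves. Clec12a and Clec7a were higher in PDR, at 60.6 and 134 FPKM against 20.01 and 57.0 in SKYD. Clec1b had 2.60 and 2.53 FPKM, a ratio of 0.973 (0.830 to 1.14), Clec1a had 6 and 2 reads, and Clec12b had 0 in both. Itgam, the paralogue of Itgax, had 8.17 times the FPKM of Itgax in PDR and 6.66 times in SKYD. Itgax shares 384 of its 4790 windows of 50 bases with Itgad, which had 1 read in PDR and 30 in SKYD. Siglece, a relative of Siglech, had 4.05 and 12.2 FPKM, and Siglecg had 7.03 and 2.08, so the higher library differed between these relatives.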

How the data were processed

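Aortic cells sorted on F4/80 and CD11b, pooled from 5 mice a group, gave 1 library for PDR and 1 for SKYD. The authors counted reads with HTSeq 0.6.1 after alignment with TopHat2 2.0.9 and Bowtie2 2.0.6, as the submitters' processing notes list, and deposited FPKM for 54532 genes. Those notes name the build mm9, but 98.3% of the 54409 genes shared with GENCODE M21 have the same position as in GRCm38, so coordinates are given as GRCm38. Whether counting used strand is not given in the sources used here.

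FPKM times gene length was divided by the smallest step of each library, which gave whole reads, within 0.01, for 100% of genes above 0 in both libraries. Differences are log2(FPKM + 1), PDR minus SKYD, with 95% Clopper-Pearson limits on the read split, a floor of 3 reads for a count of 0, a minimum mean FPKM of 1 and a threshold of 2-fold. With 1 library a group, no test was run. The steps were checked on simulated data. The members and the gene lists were chosen with earlier results of these data known. The genes named were the 10 members, their partners and closest paralogues, and of each list the 3 with the highest mean FPKM and the 2 with the largest difference each way. Foxp3, Csf1, Kitl, Klf4, Relb, Irf4, Tcf4, Spib, Pacsin1, Cd300c, Cox6a2, Clec1a, Clec1b, Clec12b, Rag1, Ptcra, Siglece, Siglecg, Itgad, Haspin, Fcer2a and Clec4g were added after their values were seen. For the other cell types only some are named. Promoter windows came from RefSeq and transcripts from GENCODE M21, and percent identity was counted over aligned bases of global alignments. Alternatives were a pseudocount of 0.1, no filter, a mean FPKM of at least 5, TPM, centring, a 4-fold threshold and protein-coding genes only. Tools were Biopython 1.88, scipy 1.17.1, matplotlib 3.10.9, pandas 2.3.3 and numpy 2.4.6 under Python 3.11.15.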

Additional observations from a re-analysis of the deposited data

How the results depend on the processing

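No paired analysis was possible because each group had 1 library. Across the 159 recomputed values, all differences of single members kept their direction, and 39 of them lay within their counting interval and 5 outside it. A pseudocount cannot turn the direction of a single gene, and a filter leaves its difference unchanged. Under those settings the kept direction was therefore fixed in advance and is no sign of stability. Of the list medians, 69 lay within the medians of their genes' interval bounds, 16 lay outside and 4 changed sign, and the cause was not tested. Lists or members with no gene above a raised minimum gave no value. With a pseudocount of 0.1, the median of the members was -1.06 and that of mature dendritic cell genes 1.06, and the differences were -4.28 for Siglech, -1.06 for Xcr1, -0.93 for Itgax and -0.18 for Zbtb46, as the smaller pseudocount shrinks low genes less. Xcr1 then passed 2-fold, so 4 members were counted as higher in SKYD, where 9.71% of all genes tested were, against 10.2% in PDR. After rescaling to TPM, Siglech was at -3.45. With the minimum mean FPKM raised to 5, the members' median was -1.78 over fewer genes, that of cDC2 genes -1.39, and the medians of cDC1 genes (0.38), dendritic cell transcription factors (-0.61) and paralogues (-0.24) changed sign. Without the filter, the median of cDC1 genes was 0.11, also a change of sign, that of plasmacytoid genes -0.10, and the share of all genes past 2-fold was 3.94% higher in PDR and 3.92% in SKYD. With a threshold of 4-fold those shares were 1.87% and 2.08%, and 1 member, Siglech, was counted in SKYD. Depth limits Zbtb46, Itgae and Clec9a, which had under 80 reads in each library.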

Other observations

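Genes of other antigen-presenting cells, chosen after their values were seen, were read beside the members. Cd207, which encodes langerin of Langerhans cells and some cDC1, had 0 reads in PDR and 97 in SKYD, a difference of at least 30.4-fold. Epcam, an adhesion protein also found on Langerhans cells, had 5.82 FPKM in PDR and 6.79 in SKYD. Ly75, the endocytic receptor DEC-205 of cDC1, had 0.401 and 0.238 FPKM from 65 and 41 reads. Cd226, a receptor of resident macrophages and NK cells, had 23.7 and 26.3. Of these 4 genes, Cd207 alone differed by more than 2-fold.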
